A study of Mus musculus with 7 samples.

Results

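The cytosolic ribosomal protein genes encode the protein parts of the ribosome that works in the cytoplasm. They were taken as the GENCODE M21 protein-coding genes whose symbol starts with Rpl or Rps and a digit, together with Rpsa, Rplp0, Rplp1 and Rplp2. Kinase genes (Rps6k), Rps19bp1 and all symbols with the pseudogene mark -ps were left out. The rule gave 83 genes of the 28987 in the table, 50 of the large subunit (Rpl) and 33 of the small subunit (Rps). Rpl24 and Rpl41 were not analysed here.

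Each ribosome holds about equal numbers of nearly all of these proteins, and their mRNAs are among the most abundant in growing cells. The mRNAs begin with a run of pyrimidines (a TOP sequence) through which their translation is controlled together with that of many translation factors. In the bone marrow, stem and progenitor cells grow and divide, whereas neutrophils stop dividing and lose ribosomes as they mature. In humans, mutations in many of these genes cause Diamond-Blackfan anemia, and loss of RPS14 contributes to the myelodysplastic 5q- syndrome.

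The study sequenced RNA from marrow cells of C57BL/6 mice, each taken from a single animal, as 7 libraries that fall into 6 groups. HSC/P are stem and progenitor cells, enriched by a CD117 selection kit and FACS sorted to keep the mutant clone, and were RUNX1mut/HMGA2-OE (a RUNX1 mutant with overexpression of HMGA2, 2 libraries) or HMGA2-OE alone (1 library), so every HSC/P library carries HMGA2-OE. Ly6G+ cells, a sorted myeloid fraction made up largely of neutrophils, were RUNX1mut/HMGA2-OE, HMGA2-OE, RUNX1mut or Control, with 1 library each. The kind of RUNX1 mutation, the vector that drives HMGA2 and the age of the mice are not stated in the labels. Values are TPM as deposited, a share of transcripts corrected for their length, and because this unit keeps no read counts the depth and counting error of each library are unknown.

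Mouse Hmga2 was listed at 176 and 138 TPM in HSC/P with RUNX1mut/HMGA2-OE, against 147 TPM in HMGA2-OE HSC/P. In Ly6G+ cells Hmga2 was at 12.1 and 3.72 TPM with HMGA2-OE (RUNX1mut/HMGA2-OE and HMGA2-OE), against 1.36 and 1.45 TPM in RUNX1mut and Control. Runx1 was at 219 and 225 TPM in HSC/P with RUNX1mut/HMGA2-OE, against 18.9 TPM in HMGA2-OE HSC/P. In Ly6G+ cells Runx1 was at 21.2 and 11.6 TPM with the mutation (RUNX1mut/HMGA2-OE and RUNX1mut), against 3.36 and 3.85 TPM in HMGA2-OE and Control. All 8 stem and progenitor markers (Kit and others) were above 1 TPM in each HSC/P library, and all 8 neutrophil markers (Ly6g and others) were above 1 TPM in all 7 libraries. The neutrophil markers summed to 1508 and 2739 TPM in HSC/P with RUNX1mut/HMGA2-OE and 8218 TPM in HMGA2-OE HSC/P, against 52781 to 117643 TPM in Ly6G+ libraries.

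The ribosomal protein genes took a large part of all TPM in HSC/P and a small part in Ly6G+ cells. Their summed share of TPM was 22.6% and 22.3% in the RUNX1mut/HMGA2-OE HSC/P libraries and 19.3% in HMGA2-OE HSC/P. In Ly6G+ cells the share was 1.91% in RUNX1mut/HMGA2-OE, 0.552% in HMGA2-OE, 0.954% in RUNX1mut and 0.641% in Control. The lowest HSC/P share was thus above the highest Ly6G+ share. Shares are of the TPM summed over the genes listed, 896820 to 935711 in HSC/P and 984650 to 993009 in Ly6G+ libraries. The neutrophil genes S100a8 and S100a9, whose products form calprotectin, took 1.67% to 5.93% of TPM in HSC/P and 17.5% to 62.1% in Ly6G+ cells, and TPM of other genes falls as theirs rises. With both genes left out of the total, the share was 23.0%, 22.6% and 20.6% in HSC/P, and 2.31%, 1.46%, 1.85% and 1.36% in the Ly6G+ libraries in the same order as above. In bulk samples, fewer cells of a type and less RNA per cell cannot be told apart.

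**Figure D1:**
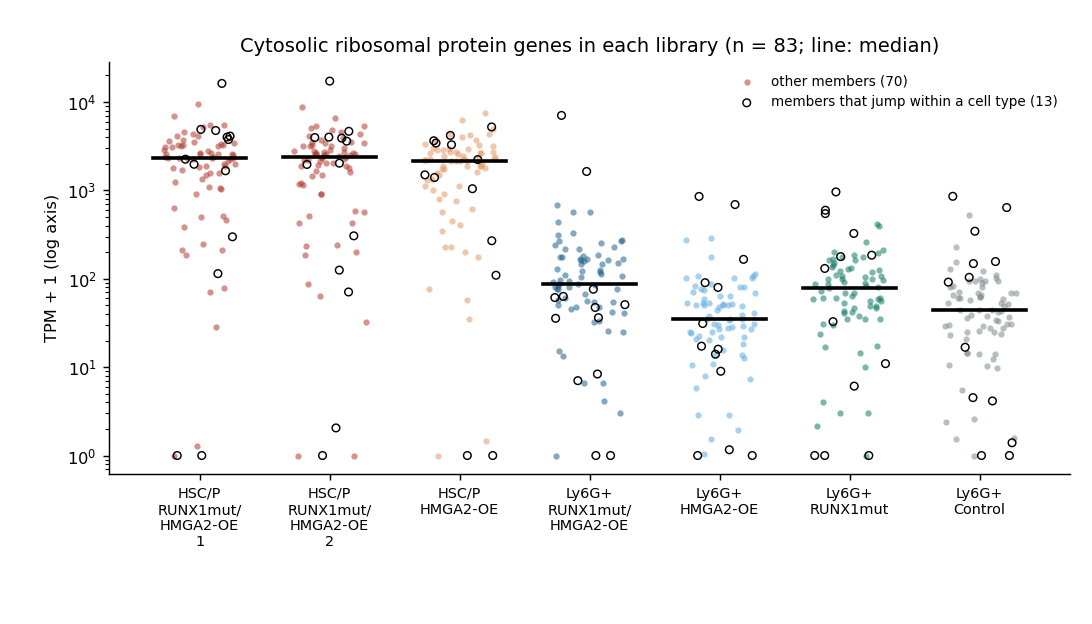
TPM + 1 of each of the 83 ribosomal protein genes (points, log axis) in each of the 7 libraries, with the median over the genes as a black line. Open circles mark the 13 genes whose level jumps between libraries of the same cell type, and the medians are 2137 to 2363 TPM in HSC/P, against 33.9 to 86.3 TPM in Ly6G+ cells.

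The typical gene followed the same order. The median over the 83 genes was 2333 and 2363 TPM in HSC/P with RUNX1mut/HMGA2-OE and 2137 TPM in HMGA2-OE HSC/P. In Ly6G+ cells it was 86.3 TPM in RUNX1mut/HMGA2-OE, 33.9 TPM in HMGA2-OE, 77.1 TPM in RUNX1mut and 43.0 TPM in Control. Between 77 and 80 of the 83 genes reached 1 TPM in each library, so nearly the whole set was detected in both cell types. The large subunit genes supplied 49.8% to 53.4% of the summed TPM in HSC/P. In Ly6G+ cells they supplied 64.6% in RUNX1mut/HMGA2-OE, 36.1% in HMGA2-OE, 46.8% in RUNX1mut and 48.7% in Control, and single genes moved these shares: Rpl36 alone made up 37.6% of the sum in RUNX1mut/HMGA2-OE, and Rps29 15.6% in HMGA2-OE.

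By mean TPM over the 7 libraries, the order of the 10 highest genes was Rps27rt, Rpl36, Rps15a, Rplp1, Rps26, Rps27, Rpl13a, Rpl32, Rps28 and Rps24, with means of 3725 TPM for Rps27rt and 1966 TPM for Rps24. Of these, Rps27 and Rps15a stood high through 1 HSC/P library each, as given with the jumping genes. Rpl36 and Rps28 were high in all HSC/P libraries, and Rpl36 also in 1 Ly6G+ library. The 5 lowest genes that reached 1 TPM in a library were Rpl39l, Rpl3l, Rpl31, Rpl5 and Rpl7l1. Rpl31 and Rpl5 are core parts of the large subunit. The low values of Rpl31 stood beside high values of near-identical copies, which are described further on. The copies of Rpl5 were low too, at 122 and 58.1 TPM in RUNX1mut/HMGA2-OE HSC/P and 49.9 TPM in HMGA2-OE HSC/P. Rpl5 itself was at 69.4, 63.2 and 57.2 TPM in these libraries. Rpl39l, Rpl3l and Rpl10l are tissue-restricted relatives of Rpl39, Rpl3 and Rpl10. Rpl10l, known from the testis, was at 0 TPM in 6 libraries and at 0.0437 TPM in Ly6G+ HMGA2-OE.

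Replicates were close for most genes. Between the 2 RUNX1mut/HMGA2-OE HSC/P libraries, the median absolute difference of log2(TPM + 1) was 0.08 over the 81 genes with at least 1 TPM in either, beside 0.20 over all 13017 such genes. Rps27, Rps12, Rps15a and Rpl39l differed by more than 2-fold, or 4.94% of the 81, beside 6.86% of all genes. All 4 are among the jumping genes described further on. These 2 libraries are the only replicates of the study, so most tests rest on few residual degrees of freedom. No Ly6G+ group has replicates, so the spread between Ly6G+ replicates is not measured.

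HSC/P and Ly6G+ cells were compared to see how far the genes differ between progenitors and maturing myeloid cells. Most genes of both subunits were higher in HSC/P. Of the 80 genes tested, 73 were higher in HSC/P and 1, Rpl3l, was lower (limma on log2(scaled TPM + 1), Benjamini-Hochberg adjusted p under 0.05 over all genes), beside 32.6% of all 12881 genes called higher and 32.3% called lower. Rpl3l entered the test only through Ly6G+ libraries, where it was higher, so its call is no independent sign of direction. By subunit, 45 of 48 tested large-subunit genes were called higher, with a median log2 difference of 2.82, and 28 of 32 small-subunit genes, with a median of 2.97. The fit used all 7 libraries with terms for cell type, RUNX1 mutation and HMGA2-OE, and left 3 residual degrees of freedom. Its residual joins the spread of the HSC/P replicate pair with departure from additive effects, and holds no spread between Ly6G+ replicates. The median log2 difference over the 80 genes was 2.85, beside 0.10 for all genes tested. Of the 73 genes, 69 were at least 2-fold and 37 at least 8-fold higher.

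**Figure D2:**
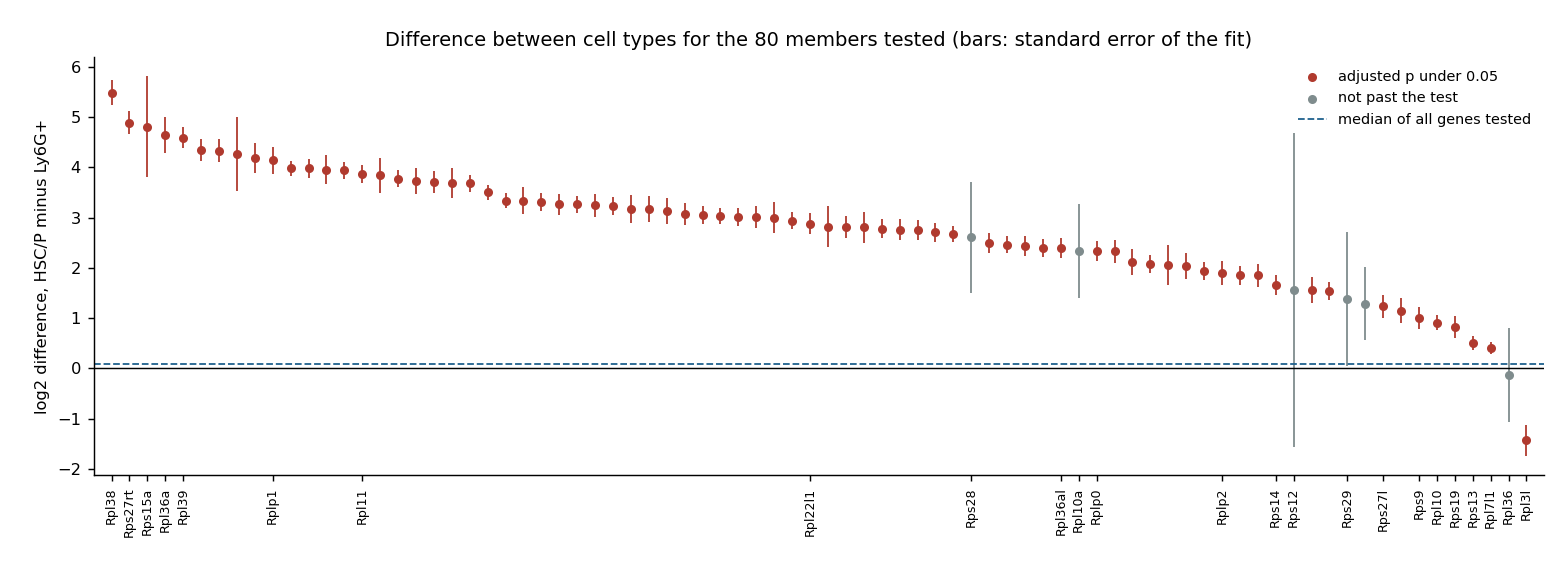
Log2 difference, HSC/P minus Ly6G+, of scaled TPM for the 80 ribosomal protein genes tested, ordered by size, with the standard error of the fit as bars and the genes described in the text named. Red points passed the test at an adjusted p under 0.05 and grey points did not, the dashed line is the median of all genes tested at 0.10, and the range is 5.49 for Rpl38 to -1.43 for Rpl3l.

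Libraries were scaled by a trimmed mean of log ratios, which sets most genes level between the cell types, and the scaling decides how many genes of the whole table differ in each direction. Over all genes, 4196 were called higher and 4161 lower in HSC/P. The split was 8356 and 1188 on TPM as deposited, 7482 and 2055 with S100a8 and S100a9 left out, and 5651 and 3131 with upper-quartile scaling. The median of all genes tested was then at 1.45, 0.99 and 0.49 on the log2 scale. The ribosomal protein genes had medians of 4.71, 4.10 and 3.38 under the same scalings, with 77, 76 and 75 genes called higher and 1 lower each time.

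The values per library show the size of the difference. Rpl11, which with Rpl5 can bind the p53 regulator Mdm2 when ribosome assembly fails, was at 2577 and 2634 TPM in RUNX1mut/HMGA2-OE HSC/P and 2368 TPM in HMGA2-OE HSC/P. In Ly6G+ cells Rpl11 was at 66.2 TPM in RUNX1mut/HMGA2-OE, 28.2 TPM in HMGA2-OE, 48.0 TPM in RUNX1mut and 28.3 TPM in Control. The groups did not overlap, and the log2 difference of Rpl11 was 3.87 ± 0.18 (SE, limma adjusted p = 1.04e-04). Rps14 was at 4127 and 4364 TPM in RUNX1mut/HMGA2-OE HSC/P and 3624 TPM in HSC/P with HMGA2-OE alone, against 566, 176, 257 and 155 TPM in the Ly6G+ libraries from RUNX1mut/HMGA2-OE to Control. Its log2 difference of 1.66 ± 0.19 (limma adjusted p = 0.00122) was among the smaller ones of the called genes.

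The difference was also taken between single libraries of the same genotype, with no test. HSC/P over Ly6G+ had a median log2 ratio of 2.90 and 2.84 in the RUNX1mut/HMGA2-OE replicates and 3.04 in HMGA2-OE. At least 2-fold higher were 70 and 70 genes, beside 24.7% and 25.4% of all genes, and 72 genes, beside 26.2%. At least 2-fold lower were 3 and 3 genes, beside 26% and 26.2% of all genes, and 2 genes, beside 28.1%.

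On deposited TPM, all 3 HSC/P values lay above all 4 Ly6G+ values for 77 of the 83 genes, beside 66.5% of the genes tested. Rpl3l lay below, beside 9.18% of the genes tested, and Rpl10l, Rpl36, Rpl39l, Rps12 and Rps27 overlapped. On scaled TPM, 73 genes lay above, beside 36.2% of the genes tested, and Rpl3l below, beside 34.2%. These 5, Rpl38, Rps28 and Rps29 were among the overlapping genes. Rpl3l was among the genes tested only through its Ly6G+ values.

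The 5 largest differences among called genes were those of Rpl38, Rps27rt, Rps15a, Rpl36a and Rpl39. Rpl36a and Rpl39 both lie on the X chromosome. Rpl39, a very small protein at the exit of the peptide tunnel, was at 2616 and 2593 TPM in RUNX1mut/HMGA2-OE HSC/P and 1904 TPM in HMGA2-OE HSC/P, against 12.8 to 40.7 TPM in Ly6G+ cells. Its log2 difference was 4.59 ± 0.22 (limma adjusted p = 1.06e-04). For Rpl38 the fitted difference of 5.49 ± 0.26 (limma adjusted p = 1.05e-04) comes from the libraries with HMGA2-OE. Scaled Rpl38 was at 1781 and 1641 TPM in RUNX1mut/HMGA2-OE HSC/P and 1626 TPM in HMGA2-OE HSC/P, whereas it was at 39.0 and 35.4 TPM in the Ly6G+ libraries with HMGA2-OE but at 1040 and 1788 TPM in RUNX1mut and Control. The Control Ly6G+ library thus had the highest scaled level of this gene. For Rps15a the difference of 4.81 ± 1.01 (limma adjusted p = 0.00938) includes 1 HSC/P library that stands apart, and its adjusted p was 0.0715 without the RUNX1mut/HMGA2-OE Ly6G+ library.

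The smallest differences among the genes called higher were those of Rpl7l1 (0.41 ± 0.12, limma adjusted p = 0.030), Rps13 (0.51 ± 0.14, adjusted p = 0.023), Rps19 (0.82 ± 0.21, adjusted p = 0.021), Rpl10 (0.91 ± 0.14, adjusted p = 0.00328) and Rps9 (adjusted p = 0.010). Rps19, the gene most often mutated in human Diamond-Blackfan anemia, was at 3291 and 3217 TPM in RUNX1mut/HMGA2-OE HSC/P and 2839 TPM in HMGA2-OE HSC/P. The Ly6G+ libraries had 679 TPM in RUNX1mut/HMGA2-OE, 291 TPM in HMGA2-OE, 393 TPM in RUNX1mut and 227 TPM in Control, so the groups did not overlap. The calls of Rpl7l1, Rps13, Rps19 and Rps9 were each lost when a single library was left out, with adjusted p up to 0.165 for Rpl7l1, 0.204 for Rps13, 0.141 for Rps19 and 0.0621 for Rps9. Rps13 and Rpl10 have near-identical copies that held most of their summed TPM, and with these added the log2 differences were 2.28 for Rps13 (limma adjusted p = 3.16e-04) and 2.13 for Rpl10 (limma adjusted p = 6.63e-04).

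Among the genes not called were Rpl36, Rpl10a, Rps12, Rps28 and Rps29, all of which jumped between libraries of 1 cell type. Without the RUNX1mut/HMGA2-OE Ly6G+ library, Rpl36 was higher in HSC/P by 1.93 (limma adjusted p = 0.0157) and Rps29 had a log2 difference of -1.71 (limma adjusted p = 0.00837). With all libraries their differences were -0.13 (adjusted p = 0.910) and 1.39 (adjusted p = 0.394), so this 1 library turned both signs. Without the HMGA2-OE Ly6G+ library, Rpl36 was at -1.86 (limma adjusted p = 0.0153) and Rps29 was at 3.88 (limma adjusted p = 9.19e-04). Summed with their copies, Rps12 (4.92, limma adjusted p = 9.15e-04), Rpl10a (3.84, limma adjusted p = 0.00162) and Rps28 (3.28, limma adjusted p = 0.0499) were called higher. Rpl10l, Rpl39l and Rps27 had fewer than 2 libraries at 1 TPM and were not tested.

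The acidic stalk proteins, which recruit elongation factors to the ribosome, were all higher in HSC/P. Rplp1 had the largest log2 difference of the 3, 4.14 ± 0.27 (limma adjusted p = 2.28e-04), with 6908 and 6522 TPM in RUNX1mut/HMGA2-OE HSC/P and 6337 TPM in HMGA2-OE HSC/P, against 41.8 to 163 TPM in Ly6G+ cells. Rplp0, which anchors the stalk, differed by 2.33 ± 0.20, and Rplp2, the partner of Rplp1, by 1.90 ± 0.24. Rplp2 was at 436 TPM in RUNX1mut/HMGA2-OE Ly6G+ cells, against 97.5 to 164 TPM in the other Ly6G+ libraries.

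Of 23 genes whose human counterparts are mutated in Diamond-Blackfan anemia or lost in the 5q- syndrome, 22 were tested and 19 were higher in HSC/P, beside 32.6% of all genes tested, with a median of 2.88. Rps28 and Rps29 were among those not called, and Rps27 was not tested.

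Relatives of standard ribosomal proteins were set beside the genes they resemble. Rpl22l1, which can replace Rpl22, was at 917 and 915 TPM in RUNX1mut/HMGA2-OE HSC/P and 766 TPM in HMGA2-OE HSC/P, against 13.3 to 53.3 TPM in Ly6G+ cells (log2 difference 2.88 ± 0.21, limma adjusted p = 3.01e-04). Rpl36al, a close relative of Rpl36a, differed by 2.40 ± 0.20 and its parent by 4.65 ± 0.36. Rps27l, which has been described as a p53 target, differed by 1.23 ± 0.22 (limma adjusted p = 0.00564). Rpl7l1 had 75.2 to 85.3 TPM in HSC/P and 9.48 to 24.3 TPM in Ly6G+ cells, against 1877 to 2149 TPM in HSC/P and 51.3 to 240.5 TPM in Ly6G+ cells for its parent Rpl7.

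Rpl3l, the striated-muscle relative of Rpl3, went the other way at very low levels. It was at 0.284 and 0 TPM in RUNX1mut/HMGA2-OE HSC/P and 0.459 TPM in HSC/P with HMGA2-OE alone, against 2.05, 0.558, 2.04 and 0.596 TPM in the Ly6G+ libraries from RUNX1mut/HMGA2-OE to Control. Its log2 difference was -1.43 ± 0.31 (limma adjusted p = 0.0107). It passed the filter on low TPM through the 2 Ly6G+ libraries with the RUNX1 mutation and was not tested when either was left out.

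Other parts of the translation machinery moved the same way. Among 3 cytosolic ribosome genes outside the symbol rule, all were higher in HSC/P, among them Rack1, a scaffold of the small subunit, by 3.62 ± 0.22, and Fau, which encodes a ribosomal protein fused to a ubiquitin-like domain, by 1.18 ± 0.11 (limma adjusted p = 1.78e-04 and 6.32e-04). All 20 genes of a list of translation factors and other TOP mRNAs were higher in HSC/P, with a median log2 difference of 2.42. Eef1a1, which brings aminoacyl-tRNA to the ribosome, was at 8014 and 8656 TPM in RUNX1mut/HMGA2-OE HSC/P and 7725 TPM in HMGA2-OE HSC/P, against 136 to 379 TPM in Ly6G+ cells. Of 77 mitochondrial ribosomal protein genes, 41 were higher and 6 lower, with a median of 0.57. Of 10 tested p53 targets, which rise when ribosome assembly fails, Bax was higher (0.91 ± 0.19) and 5 were lower, among them Mdm2 (-1.70 ± 0.14), Sesn2 (-3.07 ± 0.13) and Fas (-5.08 ± 0.23), and the median was -0.55. Beside these counts stand 32.6% of all genes called higher and 32.3% called lower.

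Members that jumped between libraries were found by setting log2(TPM + 1) of each gene against the median of the 83 genes in the same library. A gene counted as jumping when this difference spanned at least 2 over the 7 libraries or at least 1.5 within a cell type. The rule was applied to the 83 genes only, so counts under it have no share of all genes beside them. By this rule 25 genes jumped, 13 of them within a cell type, among these Rps27, Rps12, Rpl39l, Rpl38, Rps29, Rpl36, Rps28, Rps15a, Rpl10a, Rpl22, Rps21 and Rpl27a. The 12 others differed only between the cell types, among them Rpl3l, Rpl10l, Rps13, Rps9, Rpl7l1, Rpl31, Rps19, Rpl10, Rps27l, Rpl36a and Rps6. Rps6 was just inside the rule, with a range of 2.01 over the 7 libraries, and Rpl30 just outside, with 1.498 within Ly6G+ cells. For Rpl10l, Rpl39l and Rpl3l, at or near 0 in most libraries, the range comes largely from the median they are set against.

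**Figure D3:**
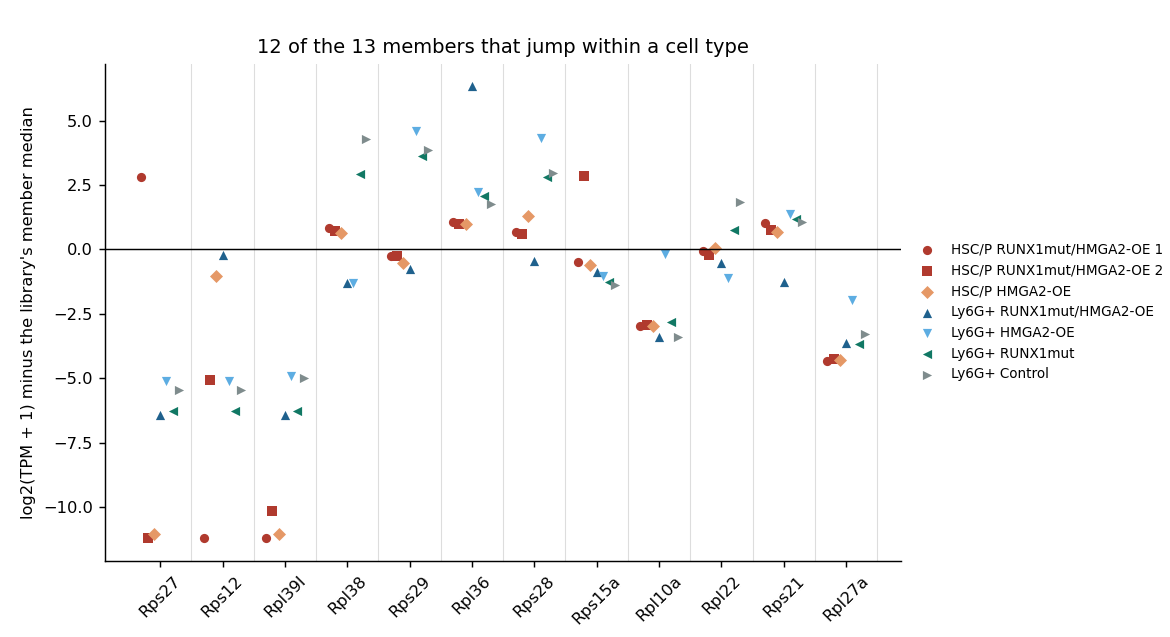
Log2(TPM + 1) of 12 of the 13 genes that jump within a cell type, minus the median over the 83 ribosomal protein genes in the same library, with 1 symbol per library. A gene that follows the set would lie on a level line of 7 points, whereas Rps27 has 1 HSC/P point far above the others and Rpl36 has 1 Ly6G+ point, that of RUNX1mut/HMGA2-OE, above the rest.

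Rps27 encodes a zinc-finger protein of the small subunit (chromosome 3, 90212522 to 90213651, minus strand, GRCm38). It was at 16250 TPM in replicate 1 of RUNX1mut/HMGA2-OE HSC/P and at 2.63e-06 TPM in replicate 2, and was listed at 0 in HMGA2-OE HSC/P and in all 4 Ly6G+ libraries. Rps27rt, a copy on chromosome 9 (114982366 to 114982739, minus strand), was at 9483 and 8793 TPM in RUNX1mut/HMGA2-OE HSC/P and 7504 TPM in HSC/P with HMGA2-OE alone, against 94.3, 57.7, 86.2 and 59.2 TPM in the Ly6G+ libraries from RUNX1mut/HMGA2-OE to Control. Rps27 thus carried 7.78% of all ribosomal protein TPM in 1 library and none in its replicate, while Rps27rt was level in both.

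The coding sequences of the 2 genes, read from the GENCODE M21 transcripts, are the same at each of their 255 bases, start and stop codon included. The sequence is shown because a read that lies within it cannot be given to 1 of the genes, and the start and stop codons are in capitals.
Rps27 and Rps27rt: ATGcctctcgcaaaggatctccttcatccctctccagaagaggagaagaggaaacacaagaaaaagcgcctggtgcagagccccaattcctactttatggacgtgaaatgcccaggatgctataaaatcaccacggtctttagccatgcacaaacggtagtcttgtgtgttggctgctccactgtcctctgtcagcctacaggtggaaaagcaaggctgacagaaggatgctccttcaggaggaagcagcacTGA

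The longest run shared by Rps27rt and a coding transcript of Rps27 was 341 of the 374 bases of Rps27rt. Upstream of the start the genes differ, as the windows of 40 bases before and 20 bases after the RefSeq start show (GRCm38.p6). Capitals mark the longest run of letters that both windows hold, 19 bases.
Rps27, chr3:90213629-90213688, minus strand: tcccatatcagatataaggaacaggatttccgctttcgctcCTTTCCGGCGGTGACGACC
Rps27rt, chr9:114982720-114982779, minus strand: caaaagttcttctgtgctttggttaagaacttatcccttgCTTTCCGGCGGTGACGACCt

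The shared run begins at the annotated start of Rps27rt and 1 base after that of Rps27, and it opens with the letters CTTTCC. These 6 letters, searched on the sense strand in the 40 bases before to 50 bases after the start, were found for 21 of the 63 ribosomal protein genes with a RefSeq promoter entry, or 33.3%, beside 4.87% of 27025 genes. The ETS-type motif CCGGAAG, searched on both strands of the whole 300-base entries, was found for 39.7% of the 63 genes and 9.93% of all genes. The promoter of Rpl38, which jumped in Ly6G+ cells, holds both, and is shown with the CTTTCC letters at its start in capitals.
Rpl38, chr11:114668540-114668599, plus strand: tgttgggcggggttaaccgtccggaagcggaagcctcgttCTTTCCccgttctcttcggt

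Rps12, a small-subunit gene on chromosome 10 (23785183 to 23787275, minus strand), was at 7.52e-09 and 69.9 TPM in RUNX1mut/HMGA2-OE HSC/P and 1045 TPM in HMGA2-OE HSC/P. The Ly6G+ libraries had 75.2 TPM of Rps12 in RUNX1mut/HMGA2-OE, and it was listed at 0 in the other 3. Rps12-ps3, a copy on chromosome 19 whose 494 bases all lie within a transcript of Rps12, was at 6516 and 5933 TPM in RUNX1mut/HMGA2-OE HSC/P and 5804 TPM in HSC/P with HMGA2-OE alone, against 79.5, 13.03, 33.2 and 21.5 TPM in the Ly6G+ libraries. Summed with its copies, Rps12 was at 6530 and 6018 TPM in RUNX1mut/HMGA2-OE HSC/P and 6859 TPM in HMGA2-OE HSC/P, a range of values far narrower than that of the gene alone. In Ly6G+ cells the sum was at 155 TPM in RUNX1mut/HMGA2-OE, 17.2 TPM in HMGA2-OE, 36.9 TPM in RUNX1mut and 35.4 TPM in Control, and it still counted as jumping there, with a range of 1.82 relative to the median.

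Rps15a, on chromosome 7 (118104372 to 118116188, minus strand), was at 1669 TPM in replicate 1 and 17261 TPM in replicate 2 of RUNX1mut/HMGA2-OE HSC/P, and at 1400 TPM in HMGA2-OE HSC/P. Replicate 2 alone was high, and Rps15a made up 8.28% of its ribosomal protein TPM. In Ly6G+ cells Rps15a had 15.8 to 46.4 TPM. Rps27 in replicate 1 and Rps15a in replicate 2 were the highest values of the set in those libraries, and neither was shared with the partner.

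In the RUNX1mut/HMGA2-OE Ly6G+ library, Rpl36 was high and Rps28, Rps29 and Rps21 low. Rpl36, a large-subunit gene on chromosome 17 (56613416 to 56614243, plus strand), was at 7060 TPM there, against 165 TPM in HMGA2-OE, 325 TPM in RUNX1mut and 148 TPM in Control, and 4195 to 4905 TPM in HSC/P. It was high in this library alone among Ly6G+ cells, and the next 3 genes were low in it. Rps28 was at 62.3 TPM there, against 691 TPM in HMGA2-OE, 546 TPM in RUNX1mut and 344 TPM in Control. Rps29 was at 49.98 TPM there, against 854, 961 and 639 TPM in the other 3, and Rps21 at 35.3 TPM, against 89.4, 177 and 90.7 TPM. Relative to the ribosomal protein median of the same library, Rps29 was at -0.78 on the log2 scale in RUNX1mut/HMGA2-OE and at 3.62 to 4.61 in the other 3 Ly6G+ libraries.

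Rpl38 and Rpl22 were lower in both Ly6G+ libraries with HMGA2-OE than in both without it. Rpl38, which in mice is needed for patterning of the skeleton (chromosome 11, 114668524 to 114672331, plus strand), was at 34.7 and 13.02 TPM in RUNX1mut/HMGA2-OE and HMGA2-OE, against 596 and 857 TPM in RUNX1mut and Control. Rpl22, needed for T cell development in mice, was at 60.3 and 15.0 TPM, against 130 and 156 TPM. Both sets of values were apart, with 2 libraries on each side. In HSC/P, where all libraries carry HMGA2-OE, Rpl38 was at 4117, 3906 and 3287 TPM and Rpl22 at 2255, 2033 and 2231 TPM.

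Transcript lengths of the jumping genes were also counted. An annotated transcript of 350 to 420 bases was found for 9 of the 13 genes that jumped within a cell type and for 24 of the other 70. The median of the shortest transcript was 369 bases for the 13 and 446.5 bases for the 70. The share of a gene's 31-base words that other genes also hold had a median of 45.3% for the 13 and 46.4% for the 70. These values are given as a description, and their part in the jumps was not tested.

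Near-identical copies held much of the signal of some genes. A copy was taken as a gene outside the set with at least 50% of its own 31-base words in a transcript of a ribosomal protein gene, a definition chosen after the data had been seen. The table holds 206 copies, of which 51 averaged at least 1 TPM, and 36 of the 83 genes had such a copy. With copies added, the set took 27.5% and 27.0% of TPM in RUNX1mut/HMGA2-OE HSC/P and 23.9% in HMGA2-OE HSC/P. In Ly6G+ cells it took 2.28% in RUNX1mut/HMGA2-OE, 0.787% in HMGA2-OE, 1.10% in RUNX1mut and 0.727% in Control.

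**Figure D4:**
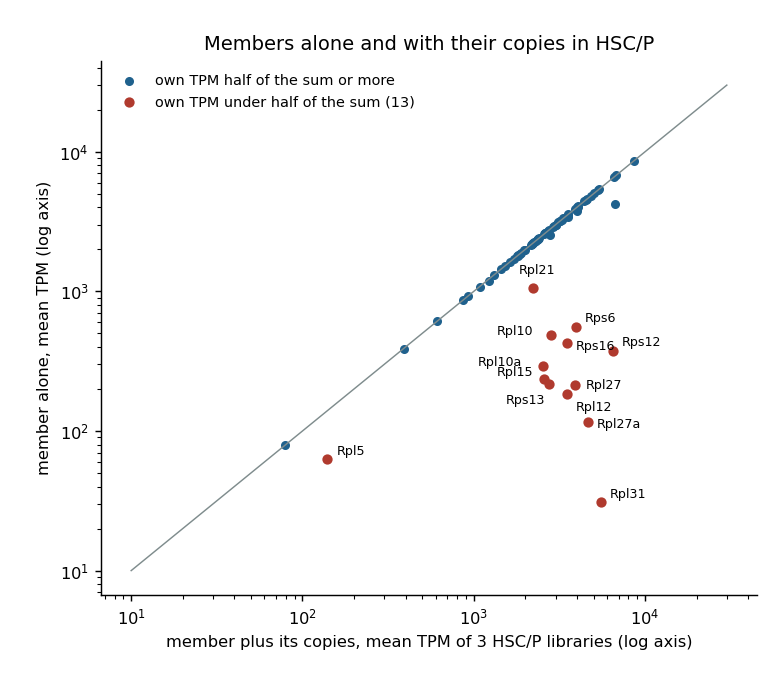
Mean TPM over the 3 HSC/P libraries of each ribosomal protein gene alone (vertical, log axis) against the gene summed with its near-identical copies (horizontal, log axis), with a line where both are equal. The 13 red genes hold under 50% of their sum, down to 0.566% for Rpl31, and Rpl5 alone among them has a low sum, of 139.9 TPM.

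In HSC/P, 13 genes held under 50% of the sum with their copies: Rpl31, Rpl27a, Rpl12, Rpl27, Rps12, Rps13, Rpl15, Rpl10a, Rps16, Rps6, Rpl10, Rpl5 and Rpl21. Rpl31 itself was at 27.7 and 31.1 TPM in RUNX1mut/HMGA2-OE HSC/P and 34.5 TPM in HMGA2-OE HSC/P, while Rpl31-ps8, on chromosome 15, was at 5876, 5591 and 4923 TPM. All 378 bases of Rpl31-ps8 lie within a transcript of Rpl31, and the gene held 0.566% of the sum. Rpl27a, at 109 to 124 TPM, stood beside Gm7536 at 4389 to 4558 TPM. Rps6, the target of the S6 kinases, was at 515 and 573 TPM in RUNX1mut/HMGA2-OE HSC/P and 574 TPM in HMGA2-OE HSC/P, beside Rps6-ps4 at 3633, 3530 and 3010 TPM. For 9 of the 13 genes the highest copy lay whole within a transcript of the gene, so values of these genes alone are uncertain.

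Adding copies brought the levels of the set together in HSC/P. The ratio of the 90th to the 10th percentile was taken over the 80 genes other than Rpl10l, Rpl3l and Rpl39l. In replicates 1 and 2 of RUNX1mut/HMGA2-OE and in HMGA2-OE, it was 19.0, 20.1 and 17.7 for the genes alone. With copies it was 3.87, 4.14 and 3.88. Genes under 500 TPM numbered 13 in each HSC/P library alone and 3 or 4 with copies, Rpl28, Rpl5, Rpl7l1 and, in the libraries without it, Rps27. In Ly6G+ cells the ratio was 12.1 to 15.5 for the genes alone and 6.81 to 11.5 with copies. Copies also jumped: Gm7206, a copy of Rpl9, was at 1594 TPM in Ly6G+ HMGA2-OE, and with copies added 30 genes jumped, 17 of them within a cell type.

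In HSC/P, RUNX1mut/HMGA2-OE was compared with HMGA2-OE to see the effect of the mutation on an HMGA2-OE background. No ribosomal protein gene passed the test. Of the 79 tested, 0 were called in either direction, beside 0% of all 12226 genes, and the smallest limma adjusted p of any gene was 0.126. The median log2 difference was -0.01 for the ribosomal protein genes and -0.01 for all genes, with 38 of the 79 above 0. At an unadjusted p under 0.05 there was 1 gene, Rps28, which was lower, beside 6.98% of all genes lower and 8.41% higher, or 1881 genes.

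Rps28, a small-subunit gene, was at 3764 and 3611 TPM in RUNX1mut/HMGA2-OE and 5227 TPM in HMGA2-OE (log2 difference -0.66 ± 0.11, limma adjusted p = 0.183). Its copy Gm10443 went the other way, at 2788 and 2763 TPM in RUNX1mut/HMGA2-OE and 1939 TPM in HMGA2-OE, and the difference of the sum was -0.31 (limma adjusted p = 0.337). The next genes by p were Rpl39 (0.29 ± 0.10), Rpl27 (-0.32 ± 0.11), Rps12 (-7.10 ± 2.80) and Rpl31 (-0.38 ± 0.16), none of which passed. The large standard errors of Rps12 and of Rps15a (1.78 ± 1.54) come from the replicates that stand apart. The summed HSC/P markers were at 874 and 796 TPM in RUNX1mut/HMGA2-OE and 332 TPM in HMGA2-OE, and the erythroid markers at 1140 and 2105 TPM against 2416 TPM. Their part in these values was not tested.

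In Ly6G+ cells, the RUNX1 mutation was set against its absence over both HMGA2 states, with 1 library per genotype and 1 residual degree of freedom. That residual is the departure of the 4 libraries from additive effects, where interaction and spread between mice cannot be told apart. No gene passed the test, but most ribosomal protein genes stood higher in the mutant libraries. Of the 79 genes tested, 0 were called in either direction, beside 0% of all 9820 genes, of which 1404 had an unadjusted p under 0.05. The log2 difference was above 0 for 64 of the 79, with a median of 0.43, beside a median of -0.01 and 49.0% above 0 for all genes. At an unadjusted p under 0.05 stood 30 genes, all higher, with differences of 0.35 to 1.23, beside 7.22% of all genes higher and 7.08% lower at this p. The median was 1.11 on TPM as deposited, where that of all genes was 0.58, and 0.16 in the additive fit to all 7 libraries. In scaled TPM, both RUNX1mut libraries lay above both others for 53 of the 79 genes, beside 24.8% of all genes, and below them for Rps13 alone, beside 26% of all genes.

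Rpl32 had the smallest p. Its scaled level was above in both mutant libraries, and it was at 265.5 and 183 TPM as deposited in RUNX1mut/HMGA2-OE and RUNX1mut, against 63.2 and 79.5 TPM in HMGA2-OE and Control (log2 difference 0.92 ± 0.11, limma adjusted p = 0.329). The next were Rpl36al (0.60 ± 0.11), Rps26 (0.57 ± 0.10), Rps4x (0.64 ± 0.12) and Rpl22l1 (0.76 ± 0.14), all at the same adjusted p. Rps26, whose human counterpart is mutated in Diamond-Blackfan anemia, was at 250.1 and 142 TPM in RUNX1mut/HMGA2-OE and RUNX1mut, against 73.8 and 82.1 TPM in HMGA2-OE and Control. Rpl32 and Rps26 thus had both mutant libraries above the others. Of the 23 Diamond-Blackfan and 5q- genes, 18 of 22 tested were above 0, with a median of 0.50, and all 3 stalk genes were above 0. Of 20 TOP factors 19 were above 0, with a median of 0.41, and of 77 mitochondrial ribosomal protein genes 57, with a median of 0.13.

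**Figure D5:**
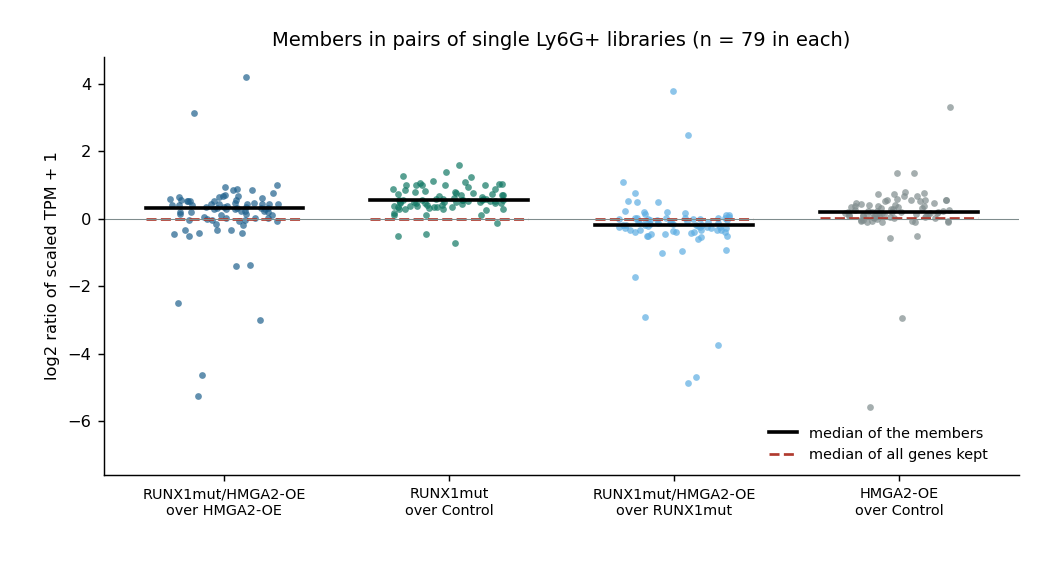
Log2 ratios of scaled TPM + 1 of the 79 ribosomal protein genes in 4 pairs of single Ly6G+ libraries (points), with the median of these genes (black line) and of all 9820 genes kept (red dashed line). The medians are 0.31 for RUNX1mut/HMGA2-OE over HMGA2-OE and 0.55 for RUNX1mut over Control, and -0.18 and 0.20 for the 2 pairs that differ in HMGA2-OE.

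The pairs of single libraries, which have no replicate check, gave the shift in each HMGA2 state. RUNX1mut over Control had a median log2 ratio of 0.55, with 75 of 79 genes above 0 and 12 at least 2-fold higher, beside 5.21% of all genes, and 0 at least 2-fold lower, beside 3.63%. RUNX1mut/HMGA2-OE over HMGA2-OE had a median of 0.31, with 58 above 0, 3 at least 2-fold higher, beside 4.79% of all genes, and 6 at least 2-fold lower, beside 5.06%. In the pairs that differ in HMGA2-OE, the shifts were smaller. RUNX1mut/HMGA2-OE over RUNX1mut had 3 genes at least 2-fold higher, beside 3.89% of all genes, and 6 lower, beside 4.43%. HMGA2-OE over Control had 3 higher, beside 3.22%, and 2 lower, beside 3.23%. RUNX1mut/HMGA2-OE over Control, which differ in both, had a median of 0.49, with 10 higher, beside 6.41%, and 5 lower, beside 6.11%.

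Without the 25 jumping genes the medians of the RUNX1mut pairs with and without HMGA2-OE were 0.35 and 0.55, with 45 and 58 of 58 genes above 0. On TPM as deposited, the 79 genes had medians of 1.47 and 0.74, where those of all 9820 genes kept were 1.02 and 0.14.

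In TPM as deposited, summed markers of other cells were higher in both mutant Ly6G+ libraries than in both others, except T and NK markers, which overlapped. On this scale 94.6% of all genes kept were higher in RUNX1mut/HMGA2-OE than in HMGA2-OE, and 65.1% in RUNX1mut than in Control. In RUNX1mut/HMGA2-OE and RUNX1mut, against HMGA2-OE and Control, the 4 primary granule markers summed to 419 and 466 TPM against 102 and 57.4 TPM, and the 8 HSC/P markers to 40.1 and 32.4 TPM against 12.2 and 17.8 TPM. The 8 erythroid markers summed to 6940 and 538 TPM against 124 and 141 TPM, the 8 B lymphoid markers to 86.8 and 93.2 TPM against 23.0 and 28.4 TPM, and the 7 monocyte and macrophage markers to 198 and 137 TPM against 56.7 and 62.0 TPM. No gene of these lists was at 0 in a Ly6G+ library. Hbb-bs alone held 4934 of the 6940 erythroid TPM in RUNX1mut/HMGA2-OE. The sum of the 8 neutrophil markers stood apart the same way, at 117643 and 73757 TPM against 52781 and 71857 TPM. Among them Camp and Retnlg stood apart, whereas Ly6g, Ltf, Ngp, Mmp8, Mmp9 and Cxcr2 overlapped. Of the HSC/P markers, Cd34, Flt3, Gata2, Hlf, Meis1 and Myb stood apart, whereas Kit and Erg overlapped. Kit and Erg were each higher in Control than in RUNX1mut, and Control had the highest Kit of the Ly6G+ libraries. All these sums are unscaled. The scaling factors that divide TPM in the Ly6G+ fits were 1.60 and 1.02 in the mutant libraries, against 0.689 and 0.891. Markers of 5 mast cell, basophil and eosinophil genes summed to 75.6 and 110 TPM against 15.5 and 7.89 TPM, and 6 T and NK cell genes to 44.2 and 20.1 TPM against 22.1 and 13.4 TPM. Their part in the higher ribosomal protein values was not tested.

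The HMGA2-OE term of the same fit to the 4 Ly6G+ libraries had a median of 0.00 over the 79 genes and no call, beside 0% of all 9820 genes, with 637 of all genes at an unadjusted p under 0.05. Of the 6 ribosomal protein genes at that p, 3 were higher and 3 lower, beside 3.12% and 3.37% of all genes. Rpl38 had the smallest p, with a log2 difference of -5.14 ± 0.29 (limma adjusted p = 0.239), then Rpl22 (-2.34 ± 0.38), Rps14 (0.52 ± 0.10), Rplp2 (0.59 ± 0.14) and Rpl28 (-0.72 ± 0.17). In the additive fit to all 7 libraries, the difference of Rpl38 was -5.16 with a limma adjusted p of 0.0056, and it was the only ribosomal protein gene called there. Every HSC/P library carries HMGA2-OE, so this difference comes from the same 4 Ly6G+ libraries. HSC/P libraries add to the residual only, which still holds no spread between Ly6G+ replicates.

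The mutation effect in HSC/P was set against that in Ly6G+ cells in the 5 libraries with HMGA2-OE. No interaction passed the test for the 79 genes, beside 0% of all 12686 genes, of which 2355 had an unadjusted p under 0.05, and the smallest limma adjusted p was 0.128. The median interaction, HSC/P minus Ly6G+, was -0.30 for the ribosomal protein genes and -0.03 for all genes. At an unadjusted p under 0.05 were 6 genes above 0, beside 8.1% of all genes, and 20 below, beside 10.5%. Among the 5 genes with the smallest p were Rps29 (5.53 ± 0.18), Rps28 (4.01 ± 0.20), Rpl36 (-4.17 ± 0.21) and Rpl10a (3.15 ± 0.16), which jumped in the RUNX1mut/HMGA2-OE or the HMGA2-OE Ly6G+ library. With 1 library per genotype in Ly6G+ cells, the genotype and the library cannot be told apart for these genes. Their standard errors rest on the RUNX1mut/HMGA2-OE HSC/P pair and hold no spread between Ly6G+ replicates.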

How the data were processed

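Values are TPM made by the authors and deposited as 1 table, per the submitters' processing notes with bcl2fastq, CASAVA 1.8 and kallisto on the mouse build mm10. The unit was read from the values, and no columns were left out. For kallisto, the version, index and annotation were not given in the sources used here. GENCODE M21 (GRCm38) gave symbols for 27458 of the 28987 identifiers. A gene entered a fit if 2 or more of its libraries reached 1 TPM. Libraries were scaled by a trimmed mean of log ratios without weights (0.3 of ratios and 0.05 of levels trimmed), and genes were tested as log2(scaled TPM + 1), which understates changes of low genes, with limma's trend. Tests were two-sided with Benjamini-Hochberg adjustment over all genes kept, and ± gives the standard error. Groups came from the labels.

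The scripts were tested on simulated data. Genes were named by rule: all jumping genes, the highest 10 and lowest 5 by mean, the 5 leading genes of each comparison in each direction or by p, relatives with their parents, and listed genes. Rpl11, Rpl27a, Rps6 and the copies named were added after their values were seen. A few genes that the rule covers are not reported here. The members and lists were chosen with earlier results of these data known. Libraries come from individual mice, and only 1 of the 6 groups has 2 libraries. The residual spread behind the p-values is that of this pair, the departure from additive effects, or both. Spread between mice is thus largely unmeasured. Alternatives were another pseudocount, no filter, other scalings, other fits, left-out libraries and members summed with copies. Sequences are from RefSeq (GRCm38.p6) and GENCODE M21, where 63 of the 83 genes had a promoter entry. Fits ran in R 4.3.3 with limma 3.58.1, and summaries and figures in Python 3.11.15 with matplotlib 3.10.9.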

Additional observations from a re-analysis of the deposited data

How the results depend on the processing

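The higher level of the ribosomal protein genes in HSC/P kept its direction under every setting tried, with 70 to 77 genes called higher and 0 to 2 lower, and no call was made in the other comparisons except those named here. For each change below the cause was not tested, other than fewer samples or genes in a fit.

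Without scaling, the medians were 0.15 for the RUNX1 mutation in HSC/P, where 1 gene of the whole table was called higher, and 1.11 for the mutation in Ly6G+ cells, where 101 genes were called higher and 32 lower, 1 of them a ribosomal protein gene (Rpl36, 3.27, limma adjusted p = 0.0454). For HMGA2-OE in Ly6G+ cells, 19 genes were then called higher and 42 lower, 1 of them a ribosomal protein gene (Rpl38). For HSC/P against Ly6G+ the median was 4.71, with 8356 genes called higher and 1188 lower, and for the interaction it was -1.33. The single library pairs had medians without scaling of 0.74 (RUNX1mut over Control), 1.47 (RUNX1mut/HMGA2-OE over HMGA2-OE), -0.17 (HMGA2-OE over Control), 0.45 (RUNX1mut/HMGA2-OE over RUNX1mut) and 1.32 (RUNX1mut/HMGA2-OE over Control). HSC/P over Ly6G+ pairs had 5.47 for HMGA2-OE and 4.27 and 4.26 for the RUNX1mut/HMGA2-OE replicates. With S100a8 and S100a9 left out, these were 4.32, 4.11 and 4.07, and the fit had a median of 4.10 with 7482 and 2055 genes. Upper-quartile scaling gave a median of 3.38, and without the jumping genes the HMGA2-OE pair was at 3.28.

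In the additive fit to 7 libraries, the RUNX1 median was 0.16 for both cell types, and HMGA2-OE had 8 genes called higher and 47 lower, 1 of them a ribosomal protein gene. The 5 libraries with HMGA2-OE gave 0 ribosomal protein genes lower in HSC/P. Without a filter on low TPM, the interaction had 1196 genes called higher and 2175 lower, with 4 and 1 ribosomal protein genes among them. Leaving out single libraries gave medians of -0.18 to 0.20 for HMGA2-OE in Ly6G+ cells and 0 to 2 genes called lower in HSC/P, and turned Rpl36 to 1.93 and Rps29 to -1.71 without the RUNX1mut/HMGA2-OE Ly6G+ library, and to -1.86 and 3.88 without the HMGA2-OE Ly6G+ library. These fits leave no residual degree of freedom outside the 7-library comparison, so their values there have no test.

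Shares of TPM with S100a8 and S100a9 out of the total were 23.0%, 22.6%, 20.6%, 2.31%, 1.46%, 1.85% and 1.36% in the order of the figure of all genes by library, and 27.5%, 27.0%, 23.9% and 2.28% in the first 4 with copies added. Jumping genes numbered 42, with 22 within a cell type, at thresholds of 1.5 and 1, and 80 and 50 without centring on the median. Of the values of single genes, 17 lost their call, 30 gained one and 2 turned sign under an alternative. No paired analysis was possible because only 1 group has 2 replicates, so no groups share 2 replicate numbers. Without read counts, the depth behind low values is unknown.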
